A study of Mus musculus with 6 samples.

Results

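The mitosis and G2/M genes described here are 50 genes whose symbols were looked up one by one in the deposited counts of HC11 cells, an established line of mouse mammary epithelial cells. They cover the mitotic cyclins and Cdk1, the mitotic kinases, the chromosomal passenger complex, the spindle checkpoint, the kinetochore, spindle motors, condensins, and the proteins of anaphase and cytokinesis. All 50 were among the 55809 genes listed and all 50 were among the 15733 that passed a filter on low counts. Sequencing covered poly(A) RNA from 3 libraries of HC11 cells in medium with BMP7, a secreted ligand of the bone morphogenetic protein family, and 3 libraries of the same line in medium without it (Ctrl). Both groups were otherwise unmodified cells of 1 line. The methods describe HC11 cells that were starved before BMP7 was added, give more than 1 length of exposure, and do not name the one used for sequencing. The BMP7 libraries are called replicates 1, 3 and 4 after their columns, and the Ctrl libraries replicates 1, 2 and 3. Nothing in the labels says that libraries of a group came from separate cultures, so the p-values measure the spread between these libraries, which may be technical.

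Cells that divide pass from DNA synthesis (S phase) through a second gap, G2, into mitosis (M phase). Most of the genes below are transcribed late in this cycle, with the MuvB complex, B-Myb and FoxM1 acting at CHR elements of their promoters. Many of these promoters also hold CCAAT elements. Some of the proteins, such as cyclin B1 and securin, are destroyed in mitosis by the anaphase-promoting complex. The summed mRNA of such genes is widely used as a sign of how many cells of a culture are dividing. In RNA from a whole culture, more cells in G2 or mitosis and more of these mRNAs per cell cannot be told apart.

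Between 14607938 and 23748970 fragments were counted per library, with the fewest in BMP7 replicate 1. The lowest member count in any library was 530, so that counting error alone was at most 4.34% of a value, and the common biological coefficient of variation between libraries was 0.0696. Of 8 epithelial markers, Krt5, Krt14, Epcam, Cdh1 and Esrp1 were at 348 or more counts per 1000000 (CPM) in every library, Krt8 was at 57.9 to 68.9 CPM and Cldn7 at 0.661 to 1.97 CPM. Krt18 was at 48.5 to 51.1 CPM in Ctrl and 27.1 to 35.7 CPM with BMP7. Epcam and Cdh1 were likewise lower and Krt14 higher in all BMP7 libraries than in all Ctrl libraries. BMP7 replicates 3 and 4 stood apart from replicate 1 in the sums of 2 lists of markers of other cells. The 8 adipocyte markers summed to 11.2 to 18.9 CPM in Ctrl and to 20.6, 68.9 and 60.8 CPM in BMP7 replicates 1, 3 and 4. The 8 macrophage markers summed to 50.9 to 54.9 CPM in Ctrl and to 51.7, 27.7 and 27.1 CPM in the same BMP7 libraries. The 6 fibroblast markers summed to 113 to 124 CPM in Ctrl and 99.9, 116 and 115 CPM with BMP7, and the 4 endothelial markers to 13.2 to 15.9 CPM and 24.0, 26.2 and 24.8 CPM. Of the fibroblast markers, Dcn was at 0.737 to 1.73 CPM in Ctrl and 1.74, 4.44 and 4.90 CPM in BMP7 replicates 1, 3 and 4. Col1a1, the most abundant of them, was at 65.1 to 78.8 CPM in Ctrl and 48.9, 58.1 and 52.6 CPM with BMP7. Nearly all of the endothelial sum was Pecam1, with Cdh5, Kdr and Tie1 each at 0.356 CPM or less. None of the defining markers was at 0 in all Ctrl libraries. The part of these differences in the results below was not tested.

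With BMP7, 3 of the 50 members passed the study's thresholds (adjusted p under 0.05, fold change over 1.2) upward, and none passed them downward. They were Cdc25b, the phosphatase that activates Cdk1, Ube2c, the E2 ubiquitin-conjugating enzyme of the anaphase-promoting complex, and Plk1, a kinase needed from mitotic entry to cytokinesis. These 3 are 6% of the members, beside 5.99% of all tested genes that rose past the same thresholds and 5.38% that fell past them. The share of members called upward was therefore close to that of all genes. By adjusted p alone (edgeR's quasi-likelihood test, Benjamini-Hochberg adjustment), 8 members (16%) rose and none fell, beside 7.33% of all genes that rose and 6.42% that fell. This count was 3 with library totals, 2 without Ctrl replicate 2, 4 without Ctrl replicate 1 or Ctrl replicate 3, and 5 without BMP7 replicate 3. It was 11 with DESeq2, 9 with RLE scaling and 12 with a length term fitted for each library. The share of all genes by adjusted p alone was not counted in these alternative fits. Of the 8 members, the 5 not named above were Aurka, Ccnb1, Tpx2, Hmmr and Nuf2. At an unadjusted p under 0.05 in edgeR, 19 members were higher and 0 lower. The share of all genes at this threshold was not counted, so these numbers are not read as a result about the members. DESeq2 also called 0 members lower. When edgeR's glmTreat was used to test for a change beyond a fold of 1.2, 0 members passed. Of all 15733 genes, 494 rose and 254 fell by it.

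Small differences in 1 direction were common among the members. The fold change was above 1 for 40 members and below 1 for 10, with a median log2 fold change of 0.101 (a rise of 7.29%) beside a median of −0.006 over all genes tested. In 20 members (40%) the BMP7 libraries were all higher than the Ctrl libraries, in 0 they were all lower, and in 30 the groups overlapped. Over all genes tested, the BMP7 libraries were all higher for 14.8% and all lower for 15.1%. The members' log2 fold changes ran from −0.09 to 0.41, with an SD of 0.111 over members and standard errors of 0.06 to 0.09. For 31 members the 95% interval of the fold change lay wholly within a 1.2-fold change in either direction. The median depends on how the libraries are scaled. With scaling to library totals in place of TMM it was 0.029 and 28 members were above 0, while the median of all genes moved to −0.081. The split of all calls moved with it, from 942 higher and 846 lower to 718 higher and 1474 lower.

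**Figure D1:**
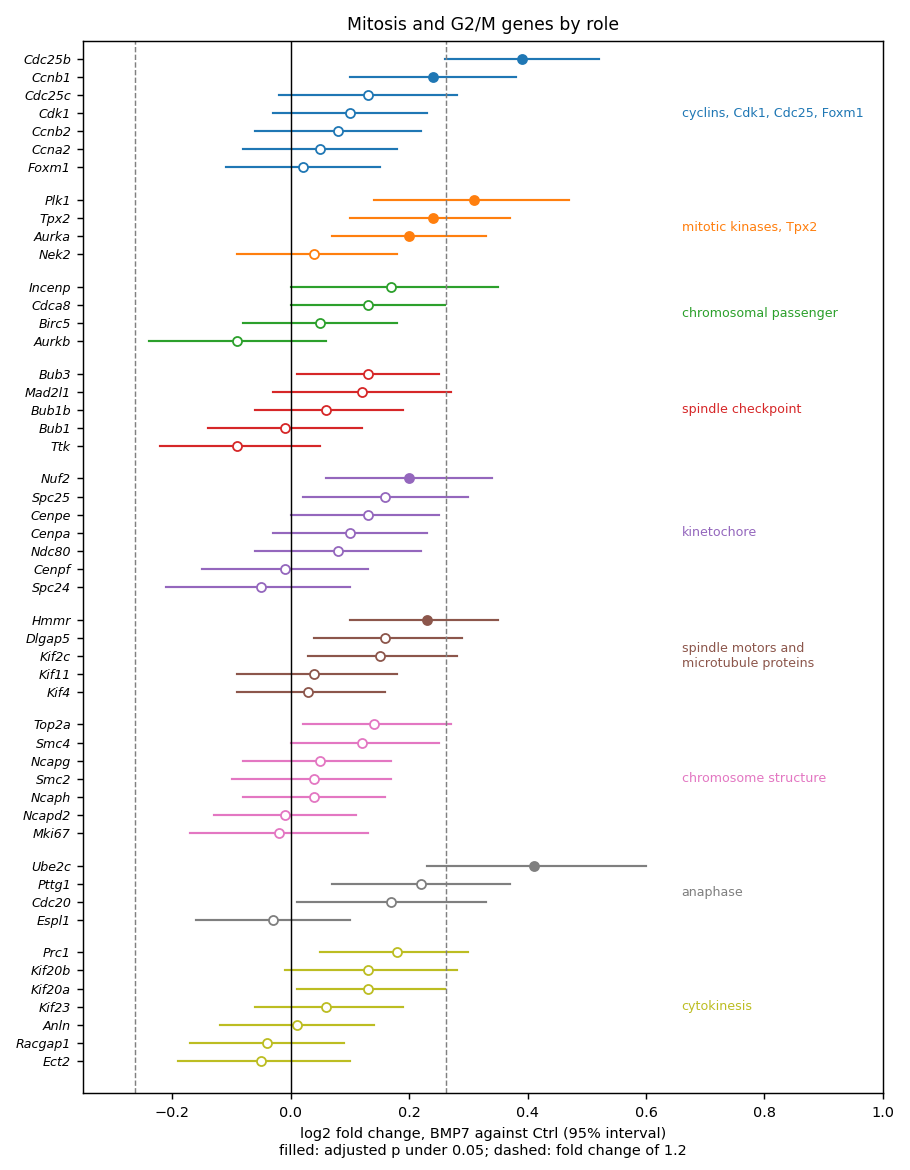
Log2 fold change of BMP7 against Ctrl for each of the 50 members, grouped by role, with the 95% interval as a line (n = 3 libraries a group). Filled points are the 8 members with an adjusted p under 0.05, the dashed lines mark a fold change of 1.2 in either direction, and 40 of the 50 points lie to the right of 0.

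The libraries of each group gave like sums. Together the members made up 10377, 10372 and 10563 CPM in Ctrl replicates 1, 2 and 3, and 11092, 11319 and 11237 CPM in BMP7 replicates 1, 3 and 4. All 3 BMP7 sums lay above all 3 Ctrl sums. As a share of all counts, before the libraries were scaled to each other by TMM, they were 1.08%, 1.06% and 1.06% in Ctrl and 1.09%, 1.07% and 1.11% with BMP7, and the groups overlapped. Set against the mean Ctrl level, the median member stood at 0.008, −0.023 and 0.003 on the log2 scale in Ctrl and at 0.114, 0.073 and 0.102 in BMP7 replicates 1, 3 and 4. BMP7 replicate 4 was the library with the highest value for 19 members, replicate 1 for 15 and replicate 3 for 11, whereas the 3 Ctrl libraries were highest for 4, 0 and 1 members. After TMM scaling, the median member was thus above the Ctrl level in each BMP7 library.

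The promoters of the members the results turn on are shown first, because genes of this class are known for the CHR and CCAAT elements they carry. RefSeq start sites on GRCm38.p6 were available for 40 members, 3 of which have several starts, giving 43 promoters. The members without one were Aurkb, Kif20a, Ccna2, Smc4, Incenp, Dlgap5, Cdc25c, Foxm1, Tpx2 and Spc24. The 250 bases before the start are printed for the 3 members past the thresholds, for Ccnb1, which encodes cyclin B1, and for Mki67, the proliferation marker whose level did not pass the test. Capitals mark the CHR letters TTTGAA or TTTAAA and the letters CCAAT, each on either strand.
Cdc25b: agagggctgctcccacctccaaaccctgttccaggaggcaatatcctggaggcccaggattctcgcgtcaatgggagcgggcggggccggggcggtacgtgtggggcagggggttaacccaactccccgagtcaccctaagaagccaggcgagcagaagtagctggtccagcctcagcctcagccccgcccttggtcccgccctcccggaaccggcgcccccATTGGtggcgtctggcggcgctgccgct
Plk1: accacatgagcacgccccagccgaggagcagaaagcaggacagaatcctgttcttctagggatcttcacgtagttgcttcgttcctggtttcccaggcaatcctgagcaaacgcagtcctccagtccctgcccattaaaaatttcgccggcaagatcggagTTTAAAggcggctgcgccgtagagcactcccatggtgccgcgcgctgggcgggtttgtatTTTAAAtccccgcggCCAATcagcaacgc
Ube2c: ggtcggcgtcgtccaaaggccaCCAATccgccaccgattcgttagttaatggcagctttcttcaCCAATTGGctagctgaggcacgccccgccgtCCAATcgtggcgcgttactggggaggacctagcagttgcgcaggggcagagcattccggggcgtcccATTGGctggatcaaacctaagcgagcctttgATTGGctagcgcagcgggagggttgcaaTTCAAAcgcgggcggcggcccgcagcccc
Ccnb1: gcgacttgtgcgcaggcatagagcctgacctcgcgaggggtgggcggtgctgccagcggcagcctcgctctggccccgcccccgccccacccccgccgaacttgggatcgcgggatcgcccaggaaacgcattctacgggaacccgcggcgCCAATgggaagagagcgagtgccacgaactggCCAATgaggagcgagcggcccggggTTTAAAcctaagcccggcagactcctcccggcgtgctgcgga
Mki67: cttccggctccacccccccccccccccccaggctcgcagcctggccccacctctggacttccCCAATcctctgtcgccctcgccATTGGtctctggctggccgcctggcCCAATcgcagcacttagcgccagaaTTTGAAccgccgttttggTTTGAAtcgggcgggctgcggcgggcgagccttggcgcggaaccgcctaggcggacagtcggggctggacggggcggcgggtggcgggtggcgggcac

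These stretches lie at chr2:131186698-131186947 (plus strand) for Cdc25b, chr7:122159185-122159434 (plus) for Plk1, chr2:164769679-164769928 (plus) for Ube2c, chr13:100786487-100786736 (minus) for Ccnb1 and chr7:135716380-135716629 (minus) for Mki67. The Cdc25b promoter held no CHR letters and 1 CCAAT, whose first base is 28 bases before the start. The Plk1 promoter held CHR letters at 89 and 29 bases and a CCAAT at 14 bases. The Ube2c promoter held 1 CHR match at 29 bases and 6 CCAAT matches, of which those at 186 and 183 bases overlap on opposite strands. The Ccnb1 promoter held CHR letters at 42 bases and CCAAT at 99 and 67 bases, and that of Mki67 CHR letters at 116 and 98 bases and 3 CCAAT between 188 and 141 bases. So the member with the smallest p and one of those near 0 both held CCAAT, and CHR letters stood in promoters of members that did and did not pass.

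Over the 43 member promoters, 22 held CHR letters in the 250 bases (51.2%, exact 95% interval 35.5% to 66.7%), beside 25.2% of all 32851 promoters. CCAAT stood in 34 (79.1%, 64% to 90%), beside 33.8%, and both in 20 (46.5%, 31.2% to 62.3%), beside 8.78%. No member promoter held a CHR and a CCAAT match that shared a base. In the last 100 bases the shares were 30.2% for CHR and 67.4% for CCAAT, beside 9.71% and 18.9% of all promoters. The intervals cover counting error only, and neighbouring start sites share sequence. Within the members the median fold change differed little with the letters. The median log2 fold change was 0.09 for the 20 members with CHR letters and 0.10 for the 20 without. Of these, 3 and 4 passed the adjusted p of 0.05. The median was 0.08 for the 31 members with CCAAT and 0.12 for the 9 without, of which 6 and 1 passed. Over all genes 7.33% rose by this adjusted p.

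Among the genes of mitotic entry, Cdc25b rose past both thresholds and Ccnb1 by adjusted p alone, and the other 5 did not pass. Cdc25b (chr2:131028869-131040417, plus strand, mm39 as in the deposited table) stood at 348, 319 and 316 CPM in Ctrl and at 437, 409 and 443 CPM with BMP7. The groups did not overlap, and the lowest BMP7 library was well above the highest Ctrl library. Its log2 fold change was 0.39 (SE 0.06, 95% interval 0.26 to 0.52, edgeR adjusted p = 0.000381). Cyclin B1, the partner of Cdk1 at entry into mitosis, stood at 82.0, 75.4 and 74.2 CPM in Ctrl and at 94.7, 89.4 and 89.5 CPM with BMP7 (Ccnb1, log2 fold change 0.24, SE 0.06, edgeR adjusted p = 0.019). Its groups did not overlap either, but the change was under the 1.2-fold threshold. Only without Ctrl replicate 1 did Ccnb1 pass both thresholds (log2 fold change 0.29, edgeR adjusted p = 0.0193). Ccnb1 did not pass by adjusted p without Ctrl replicate 2 (0.0968), Ctrl replicate 3 (0.0962) or BMP7 replicate 1 (0.0522), nor with library totals (0.131), all in edgeR. The level of Ccnb1 is uncertain, because Ccnb1-ps, Gm12856 and Gm8416 match 51.7%, 52% and 51.8% of its longest transcript at an identity of 95% or more, and fragments that map to several places were not counted. Ccnb1-ps itself was listed at 36.5 to 45.7 CPM in Ctrl and at 37.8 to 46.5 CPM with BMP7, with overlapping groups.

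Cdk1, the kinase that drives entry into mitosis, stood at 138, 132 and 133 CPM in Ctrl and at 155, 137 and 141 CPM with BMP7 (log2 fold change 0.10, SE 0.06, adjusted p = 0.319). BMP7 replicate 3 lay just below the highest Ctrl library, so the groups overlapped. Cyclin A2 (Ccna2), active from S phase to early mitosis, was the most abundant member of this role by CPM, at 459.5, 483 and 488.5 CPM in Ctrl and 501.5, 508 and 473.5 CPM with BMP7. Its groups overlapped, with BMP7 replicate 4 below 2 of the Ctrl libraries. Foxm1, which encodes the transcription factor of many of these genes, stood at 185, 189.5 and 203 CPM in Ctrl and at 206, 189.6 and 189.5 CPM with BMP7. Its log2 fold change was 0.02 (95% interval −0.11 to 0.15), and only BMP7 replicate 1 was above the highest Ctrl library. Of the other members of this role, Ccnb2 had a log2 fold change of 0.08 and Cdc25c, the second Cdk1-activating phosphatase, of 0.13. All 7 were above 0, with a median of 0.10.

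Of the mitotic kinases and their partner, 3 of 4 passed the adjusted p of 0.05, beside 7.33% of all genes that rose by it, and 1 also the fold threshold. Plk1 (chr7:121758662-121769096, plus strand, mm39) stood at 147, 165 and 183 CPM in Ctrl and at 213, 212 and 187 CPM with BMP7. The groups did not overlap, though BMP7 replicate 4 was close to Ctrl replicate 3. Its log2 fold change was 0.31 (SE 0.08, 95% interval 0.14 to 0.47, edgeR adjusted p = 0.0138). The call was lost without Ctrl replicate 1, Ctrl replicate 2 or BMP7 replicate 3, with log2 fold changes of 0.23, 0.31 and 0.28 and edgeR adjusted p of 0.085, 0.0669 and 0.0548. With library totals the log2 fold change of Plk1 was 0.23, under the threshold, at an adjusted p of 0.0323.

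Tpx2, which activates Aurora A on spindle microtubules, stood at 331, 344 and 348 CPM in Ctrl and at 384, 435 and 388 CPM with BMP7 (log2 fold change 0.24, SE 0.06, adjusted p = 0.0193). All BMP7 libraries were above all Ctrl libraries, and replicate 3 was the highest. Without BMP7 replicate 1 the log2 fold change of Tpx2 was 0.27 and without replicate 4 it was 0.26, both past the thresholds in edgeR (adjusted p = 0.0132 and 0.0203). Without Ctrl replicate 1, Ctrl replicate 2 or BMP7 replicate 3 Tpx2 did not pass by adjusted p (0.0883, 0.0756 and 0.0908 in edgeR), nor with library totals (0.0818). Aurka, the centrosomal Aurora kinase itself, stood at 102.2, 105.9 and 102.4 CPM in Ctrl and at 120.2, 113 and 124.6 CPM with BMP7 (log2 fold change 0.20, adjusted p = 0.0347), with no overlap. Aurka did not pass by adjusted p with library totals (0.216) or upper-quartile scaling (0.0543), and when single libraries were left out it passed only without BMP7 replicate 3 (edgeR adjusted p = 0.0256, and 0.0626 to 0.121 for the others). Nek2, a kinase of centrosome separation, had a log2 fold change of 0.04 and overlapping groups.

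The chromosomal passenger complex, which corrects chromosome attachments, held none that passed. Aurkb, its kinase, stood at 113, 103 and 108 CPM in Ctrl and at 111, 93.6 and 100.3 CPM with BMP7. Its log2 fold change of −0.09 (95% interval −0.24 to 0.06, adjusted p = 0.449) was among the 3 lowest of all members, and the groups overlapped. Birc5 (survivin), the most abundant member of this role, stood at 439, 445 and 429.5 CPM in Ctrl and at 477, 448 and 431 CPM with BMP7, with BMP7 replicate 4 within the Ctrl range. The scaffold Incenp had a log2 fold change of 0.17 and Cdca8 (borealin) one of 0.13, neither past the adjusted p. The sign for Aurkb was thus opposite to that for Aurka. The difference between the 2 kinases was not tested.

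Of the spindle checkpoint genes, which hold back anaphase until chromosomes are attached, none passed and the median log2 fold change was 0.06. Mad2l1, which binds Cdc20, was the most abundant, at 182, 185.5 and 203 CPM in Ctrl and 205, 224 and 190.2 CPM with BMP7. Its groups overlapped through BMP7 replicate 4. Ttk, the checkpoint kinase Mps1, stood at 80.5, 77.8 and 84.5 CPM in Ctrl and at 79.5, 71.7 and 77.8 CPM with BMP7 (log2 fold change −0.09, adjusted p = 0.446), with overlapping groups. Bub1, Bub1b and Bub3 had log2 fold changes of −0.01, 0.06 and 0.13. Bub3 alone of the 5 lay above Ctrl in all BMP7 libraries.

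At the kinetochore, the structure that joins chromosomes to microtubules, 1 of 7 members passed the adjusted p of 0.05. Of all genes, 7.33% rose by it. Nuf2, of the microtubule-binding Ndc80 complex, stood at 73.0, 67.1 and 67.8 CPM in Ctrl and at 80.9, 76.1 and 81.9 CPM with BMP7 (log2 fold change 0.20, edgeR adjusted p = 0.0498). The groups did not overlap, and the p stood at the threshold. Nuf2 did not pass when any single library was left out (edgeR adjusted p 0.0508 to 0.188), nor with upper-quartile scaling (0.0755), library totals (0.27) or no count filter (0.0775). The other 3 subunits of the same complex gave unlike values, at log2 fold changes of 0.16 for Spc25, 0.08 for Ndc80 and −0.05 for Spc24. Spc24 had the lowest level of the members by CPM, at 38.8, 36.0 and 38.0 CPM in Ctrl and 36.9, 36.9 and 34.8 CPM with BMP7, with overlapping groups. Cenpe, a kinetochore motor, stood at 259.5, 261 and 263 CPM in Ctrl and at 269, 298 and 288 CPM with BMP7 (log2 fold change 0.13), without overlap and not past the adjusted p. Cenpa, the centromeric histone, had a log2 fold change of 0.10 and Cenpf one of −0.01.

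Of the 5 spindle motors and microtubule proteins, 1, Hmmr, passed the adjusted p of 0.05, beside 7.33% of all genes that rose by it. It stood at 194, 185.5 and 192 CPM in Ctrl and at 221, 218 and 229.8 CPM with BMP7 (log2 fold change 0.23, SE 0.06, edgeR adjusted p = 0.014), and its groups did not overlap. Hmmr did not pass without Ctrl replicate 2 or Ctrl replicate 3 (0.0877 and 0.0512) or with library totals (0.115). Kif11, the motor that separates the spindle poles, was the most abundant of the role, at 280.3, 264 and 273 CPM in Ctrl and 276, 262 and 304 CPM with BMP7. Its groups overlapped, with BMP7 replicate 3 below all Ctrl libraries and replicate 4 above them. Dlgap5 and Kif2c lay above Ctrl in all BMP7 libraries at log2 fold changes of 0.16 and 0.15, and Kif4 was at 0.03.

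Genes of chromosome structure had a median log2 fold change of 0.04 and none passed in the main edgeR fit. Top2a, the topoisomerase that untangles sister chromatids, stood at 906, 902 and 899 CPM in Ctrl and at 986, 1000.2 and 1004 CPM with BMP7. The values of each group lay close together and did not overlap, and the change was small (log2 fold change 0.14, SE 0.06, edgeR adjusted p = 0.12). With DESeq2 the adjusted p of Top2a was 0.0299. Mki67, which encodes the surface protein of mitotic chromosomes detected as Ki-67, stood at 939, 996 and 1001 CPM in Ctrl and at 876, 1026 and 994 CPM with BMP7. Its log2 fold change was −0.02 (95% interval −0.17 to 0.13, adjusted p = 0.898), the groups overlapped, and BMP7 replicate 1 was the lowest library. The interval for Mki67 thus covers a change in either direction but no fold change as large as 1.2. Of the condensin subunits, Smc4 was at 0.12 and its groups did not overlap, while Smc2, Ncapg, Ncaph and Ncapd2 ran from −0.01 to 0.05.

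Of the anaphase genes, Ube2c had the largest log2 fold change of all 50 members. It lies at chr2:164611818-164620742 (plus strand, mm39) and stood at 224.5, 231 and 266 CPM in Ctrl and at 324, 359 and 276 CPM with BMP7. The groups did not overlap, but the libraries spread more than those of Cdc25b, and BMP7 replicate 4 was close to Ctrl replicate 3. Its log2 fold change was 0.41 (SE 0.09, 95% interval 0.23 to 0.60, edgeR adjusted p = 0.00417). Of its exon length, 22.8% is shared with Tnnc2, where fragments were not counted for either gene. Pttg1 (securin), the inhibitor of separase, was at 106, 101 and 108 CPM in Ctrl and at 133, 126 and 109 CPM with BMP7 (log2 fold change 0.22, adjusted p = 0.0525). Its groups did not overlap, with BMP7 replicate 4 just above Ctrl replicate 3. With DESeq2 the adjusted p of Pttg1 was 0.039. Cdc20, the activator of the anaphase-promoting complex, was at 0.17 and Espl1 (separase) at −0.03, both with overlapping groups.

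In cytokinesis, none of 7 members passed in the main edgeR fit and the median log2 fold change was 0.06. Anln (anillin), a protein of the contractile ring, was the most abundant, at 453, 447 and 435 CPM in Ctrl and 423, 444 and 478 CPM with BMP7. BMP7 replicates 1 and 4 were the lowest and the highest of all its libraries. Prc1, which bundles the microtubules of the midzone, had the highest log2 fold change of the role, 0.18 (edgeR adjusted p = 0.0553), without overlap. With DESeq2 the adjusted p of Prc1 was 0.0253. Kif20a, Kif20b and Kif23 were at 0.13, 0.13 and 0.06, and Racgap1 and Ect2, the regulators of RhoA at the midzone, at −0.04 and −0.05.

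**Figure D2:**
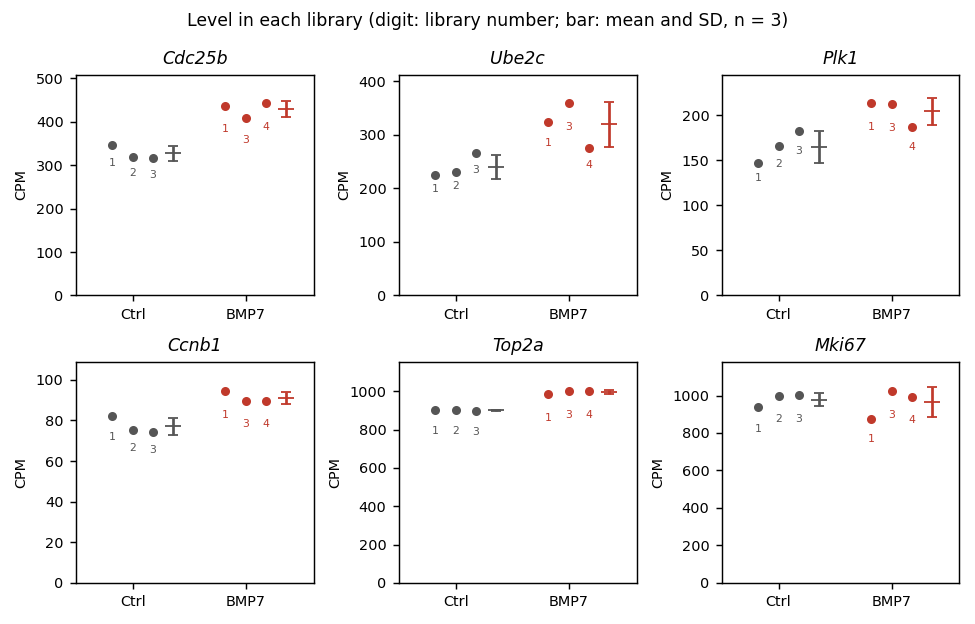
Level of 6 members in each library in CPM, with the library number under each point and the mean and SD (n = 3) as a bar, on axes that start at 0. The BMP7 points lie above the Ctrl points for Cdc25b, Ube2c, Plk1, Ccnb1 and Top2a, and overlap them for Mki67.

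Per kilobase of summed exon length, the members stood between the 66.5th and the 97.8th percentile of the genes tested. The highest were Birc5 at 131 CPM per kb over all libraries, Ccna2 at 119, Ube2c at 108, Top2a at 105 and Cdc25b at 101.5. The lowest were Cdc25c at 10.8 CPM per kb, Ndc80 at 11.4, Nuf2 at 11.7 and Espl1 at 12.3. The members past the thresholds were thus among the more abundant ones in Ube2c, Cdc25b and Plk1 (84.0 CPM per kb), and the 5 that passed by adjusted p alone ran from Nuf2 to Tpx2 (79.5). The summed length counts every annotated exon and can exceed that of the transcript in use. In the exon table, 15 members share an exon base with another gene, none over 50% of their length, and the largest share was 29.3% for Kif20a.

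Values were also set against gene length, because BMP7 replicate 1 differed from the other libraries in this respect. The members were longer than most genes, with a median summed exon length of 5193.5 bases beside 3751 over all genes tested. In BMP7 replicate 1 the median log2 ratio to Ctrl over all genes fell from 0.088 in the shortest of 5 equal bins of length to −0.089 in the longest, and Spearman's rho with length was −0.195. In BMP7 replicates 3 and 4 rho was −0.024 and 0.03, and in Ctrl it lay between −0.008 and 0.013. Over the 50 members rho was −0.523 in BMP7 replicate 1, −0.136 in replicate 3 and 0.003 in replicate 4. Genes are not replicates, and these rho values are given as descriptions.

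The shorter members were accordingly the higher ones in that library. In the 25 shorter members (1531 to 5177 bases) the median log2 ratio was 0.174 in BMP7 replicate 1, 0.090 in replicate 3 and 0.068 in replicate 4. In the 25 longer ones (5210 to 15433 bases) it was 0.042, 0.058 and 0.103. After TMM scaling, both were above 0 in each BMP7 library, and the order of short and long was turned in replicate 4. Of the 8 members that passed by adjusted p, 6 were in the shorter set, and the median log2 fold change was 0.13 in the shorter and 0.06 in the longer set. The rho of the members' log2 fold change with length was −0.3, and −0.103 without BMP7 replicate 1. Without that library 4 members passed both thresholds, Cdc25b, Plk1, Tpx2 and Ube2c, beside 949 of all 16155 genes that rose past them. With a smooth length term fitted for each library, Cdc25b, Plk1 and Ube2c passed both thresholds. In that fit 12 members passed by adjusted p, Dlgap5, Prc1, Pttg1 and Top2a in addition to the 8. Of all 15733 genes, 990 rose past both thresholds in it, and those by adjusted p alone were not counted.

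**Figure D3:**
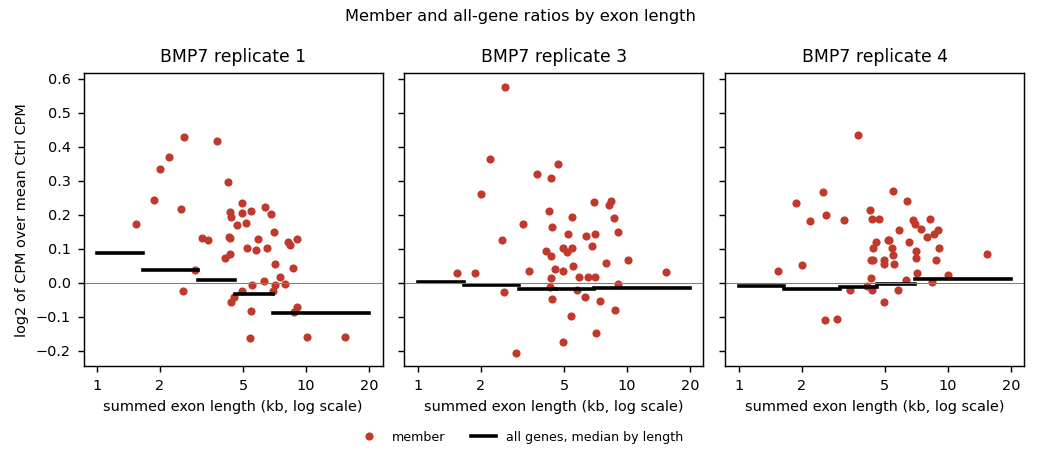
Log2 ratio of each BMP7 library to the mean Ctrl level against summed exon length (log scale) for the 50 members as points, with the median of all tested genes in 5 bins of length as black bars. In BMP7 replicate 1 the bars fall from 0.088 to −0.089 and the members fall with length. In replicates 3 and 4 the bars stay near 0, and most members lie above them with some below.

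The genes of DNA replication, expressed ahead of the members at the start of S phase, were mostly lower. Of 40 such genes, all tested, 6 fell past both thresholds and 0 rose in edgeR (0 also at an adjusted p under 0.05 alone), beside the 5.38% of all genes that fell. By adjusted p alone 11 fell, beside 6.42% of all genes. The count past both thresholds was 18 with library totals, where 1474 of all 15733 genes fell, and 1 with glmTreat, where 254 fell. In the main fit 846 of all genes fell. The largest changes were log2 fold changes of −0.86 for Ung, which removes uracil from DNA, −0.51 for Cdc6, which loads the replicative helicase, and −0.41 for Chaf1b, a subunit of the histone chaperone CAF-1. The copy Gm9430 matches 26.2% of Cdc6's longest transcript and was listed at 0.639 CPM at most. The fold change was below 1 for 37 of the 40, all BMP7 libraries lay below all Ctrl libraries for 21 (15.1% of all genes) and above them for 0 (14.8% of all genes), and the median log2 fold change was −0.18. In BMP7 replicates 1, 3 and 4 the median replication gene stood at −0.086, −0.227 and −0.208 against Ctrl, and the median member at 0.114, 0.073 and 0.102. In each BMP7 library the median of the G2/M members was thus above and that of the replication genes below the Ctrl level, though by different amounts. The medians of the lists were 0.283 apart on the log2 scale, and this difference was not tested. Without BMP7 replicate 1 the count of replication genes that fell was 11, where 902 of all 16155 genes fell. Without Ctrl replicate 2 it was 3, where 563 of all 16041 genes fell.

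**Figure D4:**
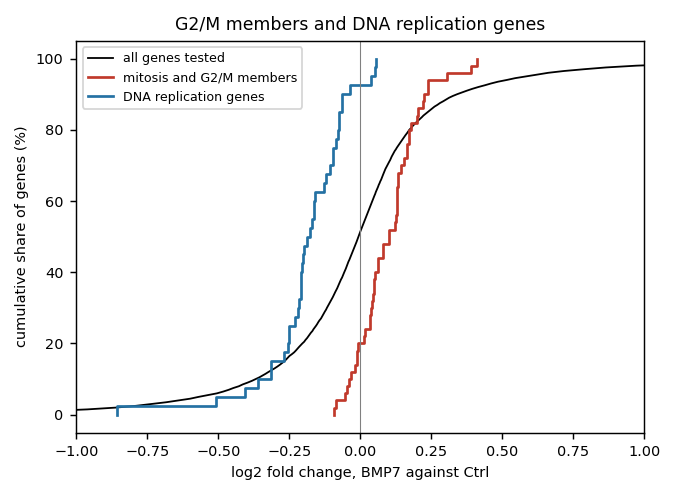
Cumulative share of genes (%) by log2 fold change of BMP7 against Ctrl for the 50 mitosis and G2/M members, 40 DNA replication genes and all 15733 genes tested. The members have a median of 0.101, with 10 of 50 below 0, and the replication genes a median of −0.18, with 3 of 40 above 0.

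Other genes of mitosis, taken from lists of known members of the same structures, had medians nearer to 0 than the 50 members. The counts of these lists stand beside 5.99% of all genes that rose past both thresholds and 5.38% that fell, and none of them is read as differing from those shares. Of 38 further kinetochore and centromere genes, 1 rose, Cenpb, which binds a repeat of centromeric DNA (log2 fold change 0.30), and none fell, with a median of 0.02. Of 27 further spindle genes none passed by edgeR, also not by adjusted p alone, at a median of 0.03. For 10 of these 27 the BMP7 libraries were all above the Ctrl libraries, and for 2 all below, beside 14.8% and 15.1% of all genes. The same counts were 6 and 3 for the 38 kinetochore and centromere genes. For the lists that follow they were 5 and 0 of 17 (anaphase-promoting complex) and 8 and 2 of 25 (entry and exit). They were 5 and 3 of 20 (MuvB, Rb and E2F) and 2 and 2 of 17 (condensin and cohesin). Of 17 subunits and regulators of the anaphase-promoting complex, 1 rose and none fell, with a median of 0.04. This was Anapc7, a subunit of its substrate-binding arm, at 63.0, 56.1 and 60.1 CPM in Ctrl and 106, 92.4 and 103 CPM with BMP7. The groups of Anapc7 were far apart (log2 fold change 0.75, SE 0.07, edgeR adjusted p = 1.34e-06), more than for any of the 50 members.

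Of 25 genes listed with the regulators of mitotic entry and exit, 2 fell past both thresholds. They were Cdca7 (log2 fold change −0.51), which is not an established regulator of mitosis, and Haspin (−0.36). Haspin is the histone H3 kinase that recruits the passenger complex to centromeres. None of the 25 rose past both thresholds, Cdca3 passed by adjusted p alone (0.23, edgeR adjusted p = 0.027), and the median was 0.03. Of 20 genes of the MuvB, Rb and E2F factors that control cell cycle transcription, E2f5 rose (0.31) and E2f2 fell (−0.29), and the median was −0.01. Mybl2, which encodes B-Myb, the activator of G2/M genes in the MuvB complex, passed by adjusted p alone (log2 fold change 0.24, edgeR adjusted p = 0.0279). Its level is uncertain, because Gm3320, listed at 22.2 to 37.1 CPM, matches 20.3% of its longest transcript. Rb1 (0.22, edgeR adjusted p = 0.0389) and Tfdp2 (−0.25, 0.0383) also passed by adjusted p alone. Of 17 further condensin and cohesin genes none passed both thresholds and Top2b passed by adjusted p alone (0.18), at a median of −0.01.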

How the data were processed

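Poly(A) RNA of HC11 cells was sequenced in 3 Ctrl and 3 BMP7 libraries. The authors aligned read pairs with subjunc (Subread 2.0.3) and deposited raw counts of fragments per gene name from featureCounts 2.0.1, without normalization, each with a summed exon length. The file header names an mm39 annotation and the methods mm10. Strand was not used, and fragments of several places or genes were left out. The samples are grouped by their labels, and the BMP7 columns, numbered 1, 3 and 4, could be tied to the group only.

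Counts were analysed in R 4.3.3 with edgeR 4.0.16 (filterByExpr, TMM, quasi-likelihood test, Benjamini-Hochberg adjustment over 15733 genes). Standard errors are the log2 fold change over the square root of F, and intervals use the test's degrees of freedom. CPM are scaled by TMM, and log2 ratios use CPM plus 0.1. The members and lists were chosen with earlier results of these data known, so no test was made over a list. Values in every library are given for members past the thresholds, the 3 highest and 3 lowest fold changes, the most abundant member of each role and 7 well-known genes, and those of Aurka, Hmmr, Nuf2, Pttg1 and Anapc7 were added after seeing them. The tests were tried on simulated counts. Alternatives were DESeq2 1.42.0, RLE, upper-quartile and library-total scaling, no filter, 10 counts in every library, glmTreat, a lowess length offset (span 0.3), and leaving out each library. Copies were searched with BLAST 2.17.0 (95% identity, 100 bases) in GENCODE vM21, and a match was recorded where it covered at least 10% of a gene's longest transcript. Among the members 5 had such a match: Ccna2, Ccnb1, Cdc25c, Kif20a and Kif4. Those of Ccna2, Cdc25c, Kif20a and Kif4 were to Exosc9, Gm3550, Cdc23 and Pdzd11, genes that share exon bases with them. Ccnb1 shared no exon base with another gene. Promoter sequences are RefSeq's.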

Additional observations from a re-analysis of the deposited data

How the results depend on the processing

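No member past a threshold turned direction, and none fell past both thresholds under any alternative. The members with a fold change above 1 (40) were 28 with library totals and 38 to 44 otherwise. The count of members that rose (3) was 3 with DESeq2, RLE and upper-quartile scaling, no count filter, 10 counts in every library and the length offset, 2 with library totals, 0 with glmTreat, and 2 to 5 without single libraries (Cdc25b and Ube2c in each). Without BMP7 replicate 4 it was 5, with Pttg1 and Tpx2 added, beside 1081 of all 16139 genes that rose. By adjusted p alone the count (8) was 3 with library totals, 6 with upper-quartile scaling and 2 to 8 without single libraries. It was 9 with RLE scaling, 11 with DESeq2 and 12 with the length offset. The median log2 fold change (0.101) was 0.029 with library totals and 0.088 to 0.105 without single libraries. The replication genes that fell (6) were, under alternatives added after seeing the data, 18 with library totals, 1 with glmTreat and 3 to 11 without single libraries. Over all genes 1474, 254 and 563 to 902 fell in these fits, beside 846 in the main fit. Scaling moves both lists alike, and the gap between the medians stayed 0.283 with other scaling, filters, DESeq2 and glmTreat. It was 0.295 with the length offset and 0.259 to 0.314 without single libraries. Spearman's correlation coefficient of BMP7 replicate 1 with gene length over all genes (−0.195) was −0.21 with the longest GENCODE vM21 transcript. CHR letters stood in 30.2% of member promoters in the last 100 bases. No paired analysis was possible because the BMP7 columns carry the numbers 1, 3 and 4, which cannot be tied to the labelled samples. Changes of the members' size are near the spread between 3 libraries, and a p that misses the threshold does not show that levels were equal.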
